A study of Mus musculus with 16 samples.

Results

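The members described here are the genes for matrix metalloproteinases (Mmp), for ADAMTS proteases and ADAMTS-like proteins (Adamts, Adamtsl) and for the tissue inhibitors of metalloproteinases (Timp). They were chosen by name, as every row of the deposited gene table whose symbol begins with Mmp, Adamts, Adamtsl or Timp followed by a digit. The rule uses no measured value, but it was set with earlier results of these data known. This gave 49 members of 20056 genes, made up of 21 Mmp, 19 Adamts, 5 Adamtsl and 4 Timp genes. RNA had been sequenced from sorted mesenchymal stem cells (MSC) and sorted osteoblasts (OB) of mice, in libraries prepared from poly(A) RNA. The groups were wild-type MSC, miR-9-1-deficient MSC, wild-type OB and miR-9-1-deficient OB, each with 4 libraries, and the deficient mice had been made by CRISPR/Cas9 editing of the gene for the microRNA miR-9-1. The labels give an animal number, shared by an MSC and an OB library, but no age, sex, strain background, allele or sort gate, and these numbers were taken to name 8 mice. The 4 wild-type mice are called A, B, C and D here, and the 4 deficient ones E, F, G and H.

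Matrix metalloproteinases are zinc-dependent enzymes that cut collagens, gelatin and other proteins of the extracellular matrix, and most are made as inactive precursors. ADAMTS proteases are secreted relatives that trim procollagens and cut large proteoglycans such as aggrecan and versican, while ADAMTS-like proteins lack the catalytic domain and bind to matrix. TIMPs bind the active site of these enzymes and block it, and in bone the balance of proteases and inhibitors governs the turnover of collagen and the replacement of cartilage by bone.

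The MSC libraries held 10148197 to 14246986 reads in genes and the OB libraries 15543693 to 18962771, recovered from the deposited normalized counts. A gene without a read in a library may still have a true level of up to 3 reads (95% confidence, counting error only), worth 3.52 to 4.51 normalized counts in MSC libraries and 1.95 to 2.36 in OB libraries. The edited gene Mir9-1 had 0 reads in all 8 MSC libraries, 0 to 16 in wild-type OB and 0 to 3 in deficient OB libraries, so these poly(A) libraries gave little check of the genotype label. The OB label was only partly borne out by markers: the mean log2 level of 10 osteoblast genes was 9.71 to 10.69 in wild-type OB against 10.98 to 11.05 in wild-type MSC libraries, and 5 of the 10 fell and 1 rose in OB. Of all 14696 genes tested there, 35.5% fell and 34.4% rose. The level of 10 genes of MSC stroma was 11.14 to 12.03 in wild-type MSC and 8.32 to 9.19 in wild-type OB libraries. Among MSC libraries, those of mice A, E and F had little of the female-specific RNA Xist and much of the Y-linked Ddx3y and the other 5 the reverse, whereas each of the 8 OB libraries held both, with Xist at 3719.5 to 8053 and Ddx3y at 649 to 1939 normalized counts. RNA of both sexes in a library goes against an origin from a single mouse, and since all 8 OB libraries share this, no OB result could be recomputed without it. For OB libraries the letters A to H therefore stand for the animal numbers of the labels, and an origin from single mice was not shown.

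Levels of the members ranged from 0 to 70038 normalized counts, which are read counts divided by a factor for each library's depth. Group means of at least 100 normalized counts were found for 38 members in wild-type MSC, 35 in deficient MSC, 21 in wild-type OB and 24 in deficient OB libraries, and means of at least 1000 for 17, 16, 7 and 6. The members together took 1.08 ± 0.127% (SD, n = 4) of all normalized counts in wild-type MSC and 1.27 ± 0.215% in deficient MSC libraries. In OB libraries this share was 0.158 ± 0.0239% and 0.271 ± 0.17%, and the highest deficient OB library (mouse E, 0.496%) stayed under every MSC library. There were 9 members that never exceeded 52.3 normalized counts in any library: Adamts13, Adamts19, Adamts20, Mmp1a, Mmp1b, Mmp10, Mmp12, Mmp21 and Mmp27. Among them is Adamts13, which cuts von Willebrand factor and is made mainly in liver: it was at 0 in 7 of the 8 MSC libraries.

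**Figure D1:**
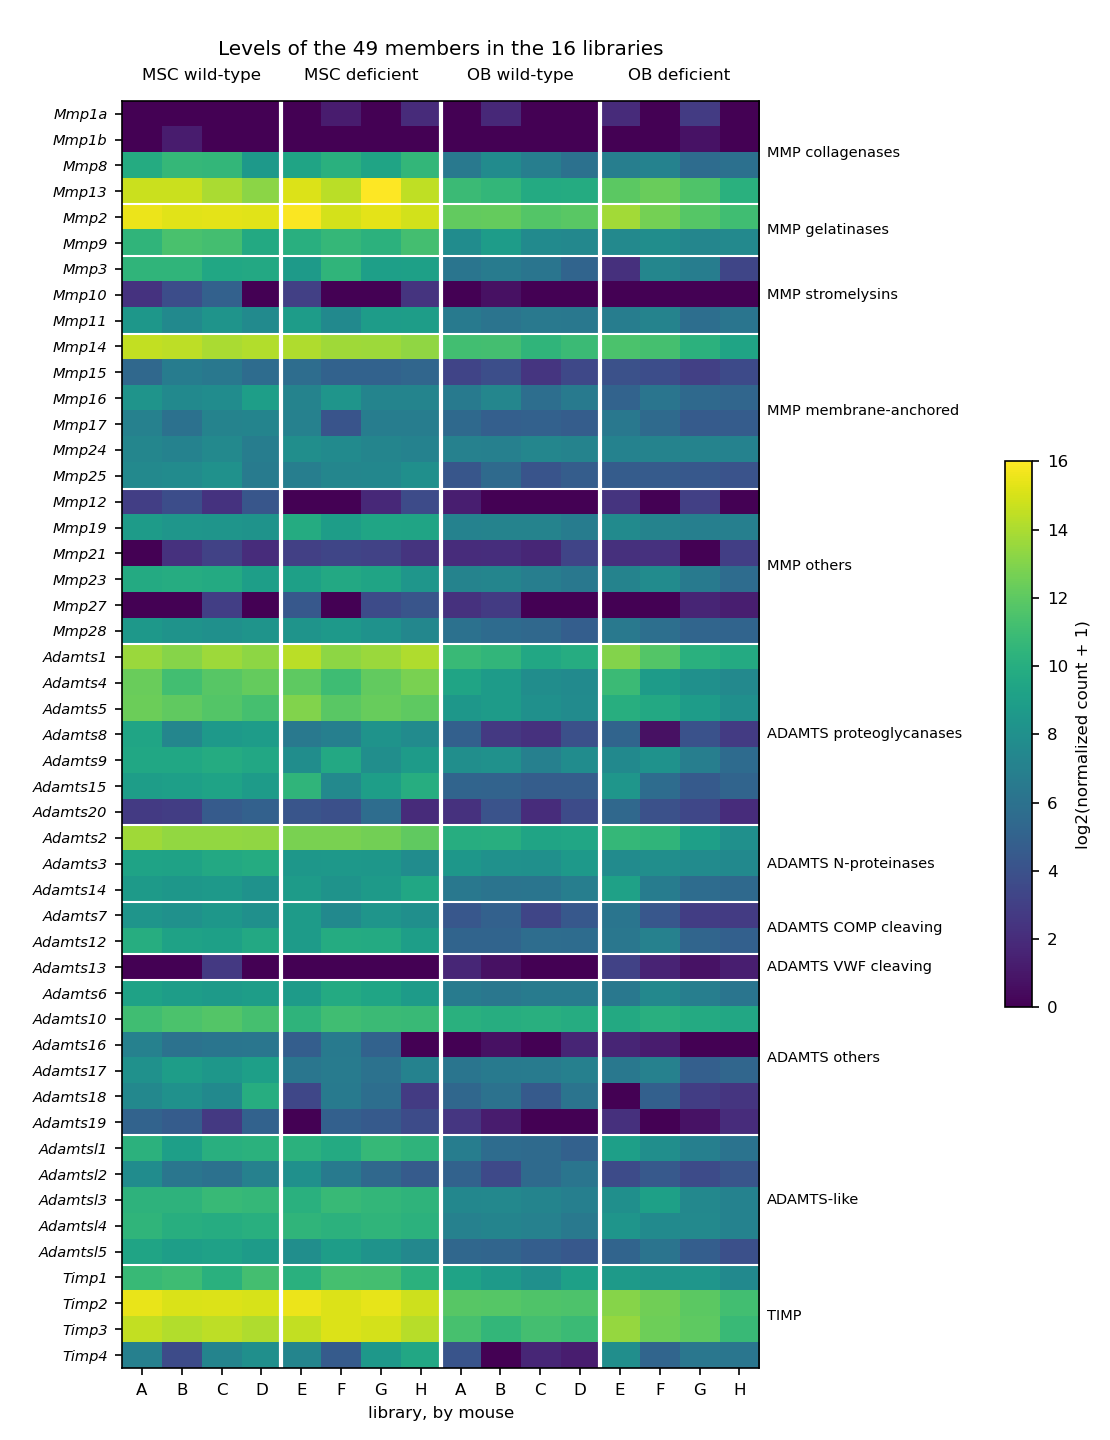
Heat map of the 49 members (rows, grouped by subfamily) in the 16 libraries (columns, by group and mouse), with color giving log2(normalized count + 1). Mmp2, Timp2 and Timp3 are among the brightest rows in every group, the MSC columns are brighter than the OB columns for most members, and 9 members stay under 52.3 normalized counts throughout.

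Per kilobase of exon, which allows genes to be compared with each other, a small set of members made up most of the RNA. In wild-type MSC libraries the order of mean levels was Mmp2 (12309 ± 1011 normalized counts per kilobase, SD, n = 4), Timp2 (9662 ± 1392), Mmp13 (7419 ± 3205), Mmp14 (3334 ± 573), Timp3 (2518 ± 366) and Timp1 (2079 ± 610.0). Mmp2 is gelatinase A, Mmp13 is collagenase 3, the main interstitial collagenase of mice, and Mmp14 is a membrane-bound protease that activates Mmp2 with the help of Timp2. These 6 genes held 81.3 ± 1.6% of the members' summed level per kilobase in wild-type MSC and 76.8 ± 1.79% in wild-type OB libraries. Mmp13 and Timp2 were within their spreads of each other in wild-type MSC libraries, as were Timp3, Timp1 and Adamts1 (2069 ± 380.5). In wild-type OB libraries the order began with Mmp2 (1213 ± 191), Timp2 (850.1 ± 88.8), Timp1 (523 ± 178) and Mmp13 (492 ± 189), of which Timp1 and Mmp13 overlapped in their spreads. In deficient MSC libraries Mmp13 had the highest mean (14040.4 ± 8507), ahead of Mmp2 (12244 ± 4092) and Timp2 (10078 ± 2243), with spreads that overlap. In deficient OB libraries Mmp2 led (1951 ± 1581), followed by Timp2 (1348 ± 721) and Mmp13 (1252 ± 634), again within their spreads. All these spreads are between libraries, and the order of the genes within each library was not compared.

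The genes Mmp13, Mmp12, Mmp1b, Mmp3, Mmp1a, Mmp10, Mmp8 and Mmp27 lie next to each other within chr9:7272514-7581885 (GRCm38), but were not at like levels. Per kilobase, the wild-type MSC means were 7419 ± 3205 for Mmp13, 607 ± 202 for Mmp3 and 454 ± 237 for Mmp8, and none of the other 5 exceeded 29.7 normalized counts in any library. The windows below are shown because 6 of these promoters (RefSeq starts, GRCm38.p6) carry the AP-1 motif TGANTCA, in capitals, shortly before the start, in genes both high and near 0. They are read on the strand of the gene. Mmp12 has another RefSeq start, whose window (chr9:7344147-7344446) holds no AP-1 motif.
Mmp13, chr9:7272468-7272497, plus strand, 35 bases before the start: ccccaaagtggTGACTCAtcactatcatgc
Mmp3, chr9:7445765-7445794, plus strand, 46 bases before the start: ggaagcaattaTGAGTCAgttttcgggtga
Mmp12, chr9:7347319-7347348, plus strand, 44 bases before the start: gacatcaacagTGAGTCAgatagaggattt
Mmp10, chr9:7502268-7502297, plus strand, 63 bases before the start: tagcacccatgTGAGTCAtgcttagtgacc
Mmp1a, chr9:7464057-7464086, plus strand, 73 bases before the start: gttgtcaaccaTGAGTCAcatagcctctgg
Mmp1b, chr9:7388101-7388130, minus strand, 93 bases before the start: gttacaaagccTGAGTCAtatagcctctgg

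On either strand of windows of 300 bases around the start, TGANTCA, whose reverse complement has the same form, was found in 6 of 34 members with a RefSeq promoter (17.6%) and in 7.50% of 14167 genes. All 6 are the genes of the chromosome 9 group shown. The RUNX motif TGTGGT, searched on both strands, was found in 5 of 34 members (14.7%) and in 15.96% of genes. The motifs are letters in these windows, and binding of a factor was not measured.

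Deficient and wild-type MSC libraries were compared first, since the study asked how miR-9-1 acts on the marrow environment in which lymphocytes develop. Fold changes are differences in mean log2(normalized count + 1), deficient minus wild-type, given with their SE from limma, and they understate the change of low genes. P-values were adjusted by Benjamini-Hochberg over all tested genes, those with at least 10 normalized counts in at least 4 of the 8 libraries. Of the 42 members that passed the filter on low values, 3 fell in miR-9-1-deficient MSC libraries at an adjusted p under 0.05 and 0 rose: Adamts2, Adamts3 and Adamts17. Among all 14964 genes tested, 0.561% fell and 0.501% rose. The median log2 fold change of the tested members was -0.10, against -0.03 over all genes. The groups did not overlap for 5 members that were lower and 1 that was higher, and over all genes 6.1% were lower and 6.3% higher without overlap. In bulk RNA such as this, fewer cells of a type and less RNA per cell cannot be told apart.

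Procollagen N-proteinases, which remove the amino-terminal propeptide of fibrillar procollagens, held 2 of the 3 members that fell. Adamts2 (chr11:50602084-50807573, plus strand, GRCm38) acts mainly on procollagens I and III. Its level was 13384, 10989, 10702 and 10482 normalized counts in the wild-type MSC libraries of mice A to D, and 7154, 6989, 6238 and 4354 in the deficient libraries of mice E to H, the order used throughout. Every deficient library lay under every wild-type one, and the log2 fold change was -0.90 ± 0.18 (SE; adjusted p = 0.0426). Adamts3 (chr5:89677087-89883334, minus strand), which cuts procollagen II and also activates the lymphatic growth factor Vegfc, had 630.0, 597, 817 and 933 in wild-type and 351, 376, 358 and 219 in deficient MSC libraries. These groups too were apart, with mouse H lowest, and the log2 fold change was -1.19 ± 0.22 (adjusted p = 0.0373). Adamts14, the remaining member of this subfamily, overlapped between genotypes, at 290.0 to 422 against 298 to 732 (0.31 ± 0.25, adjusted p = 0.488).

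Among the ADAMTS genes related to fibrillin and others, Adamts17 (chr7:66839735-67153171, plus strand), a protease that binds fibrillin and whose loss causes short stature, had the largest change to pass the test. It stood at 276, 469, 352 and 526 in wild-type MSC and 76.3, 102, 64.1 and 134 in deficient MSC libraries. The highest deficient library was below the lowest wild-type one, and the log2 fold change was -2.11 ± 0.29 (adjusted p = 0.0253). Of the 6 members of this subfamily, 1 fell, and the fold changes ran from -3.65 to 0.25. Adamts6, which acts on matrix around fibrillin, had 412 to 601 in wild-type and 446 to 874 in deficient libraries (0.25 ± 0.23, adjusted p = 0.539). Adamts10 and Adamts18 were lower without overlap but did not pass, at -0.58 ± 0.18, adjusted p = 0.106 and -3.65 ± 0.84, adjusted p = 0.0608, and they are named after their values were seen.

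Sites for the microRNA in the 3′ UTRs of the members are shown because the genotype removes 1 source of it. Mature miR-9-5p (RefSeq, GRCm38.p6, chr3:88215613-88215635, plus strand at the Mir9-1 gene) pairs with its targets through bases 2 to 8, in capitals. The windows below it are UTR sites (GENCODE M21, GRCm38, read on the strand of the gene) with the letters of the site in capitals. They come first from 2 of the 3 genes that fell, all of the shorter form CCAAAGA. In this form the last A lies opposite base 1, and base 8 has no match. The 3 with the longest match, ACCAAAGA, follow.
miR-9-5p: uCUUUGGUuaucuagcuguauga
Adamts2, chr11:50805696-50805717, plus strand: ggcaagtaggCCAAAGAgcgag
Adamts2, chr11:50806528-50806549, plus strand: gctccagctcCCAAAGAaccaa
Adamts17, chr7:67150782-67150803, plus strand: gagaacgtgtCCAAAGAgctag
Adamts17, chr7:67151908-67151929, plus strand: gttagcttacCCAAAGAcattc
Adamts6, chr13:104494910-104494932, plus strand: aaggataacaACCAAAGAagaaa
Adamts9, chr6:92772832-92772854, minus strand: gctttccaagACCAAAGAgatta
Adamts14, chr10:61198029-61198051, minus strand: acacacacacACCAAAGAcaaag

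A site, counted where the letters ACCAAAG or the letters of the shorter match CCAAAGA occurred, was found in the longest 3′ UTR of 17 of the 49 members (34.7%) and of 21.5% of 16777 genes of the table, with median UTR lengths of 1459 and 1041 bases. Adamts3 had no site. In MSC libraries 8 of the 16 tested members with a site had a positive and 8 a negative fold change (median -0.01), and the 26 without a site had a median of -0.13. The genes with the longest match, Adamts6, Adamts9 and Adamts14, were at 0.25, -1.06 and 0.31 on the log2 scale, none of which passed. In OB libraries the medians were 0.25 with and 0.03 without a site. A match is a description of the sequence and does not show that miR-9 acts there.

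The 3 calls rest on the full set of libraries. All 3 were lost when any of the libraries of mice B, C, D, E, G or H was left out, only Adamts17 passed without mouse A, and 10 members passed without mouse F, 2 higher and 8 lower. Leaving out the deficient libraries of mice G and H, a choice made after seeing that their skeletal muscle genes had mean log2 levels of 6.34 and 7.89 against 2.90 to 5.16 in the other MSC libraries, gave -2.15, adjusted p = 0.19 for Adamts17, -1.01, adjusted p = 0.256 for Adamts3 and -0.68, adjusted p = 0.256 for Adamts2. Marker genes of other cell types also stood lower in the deficient MSC libraries. The mean log2 level of the 10 osteoblast genes was 10.98 to 11.05 in wild-type and 8.67 to 9.85 in deficient MSC libraries (4 of 10 fell, none at 0). That of 9 chondrocyte genes was 11.45 to 13.97 and 8.96 to 11.06 (0 of 9 passed, none at 0), and that of 8 B lineage genes 6.04 to 7.001 and 3.95 to 5.07 (2 of 7 tested fell, with Vpreb1 at 0 in the deficient group). Of all genes tested in MSC libraries, 0.561% fell. The part of these cells in the change of Adamts2, Adamts3 and Adamts17 was not tested.

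**Figure D2:**
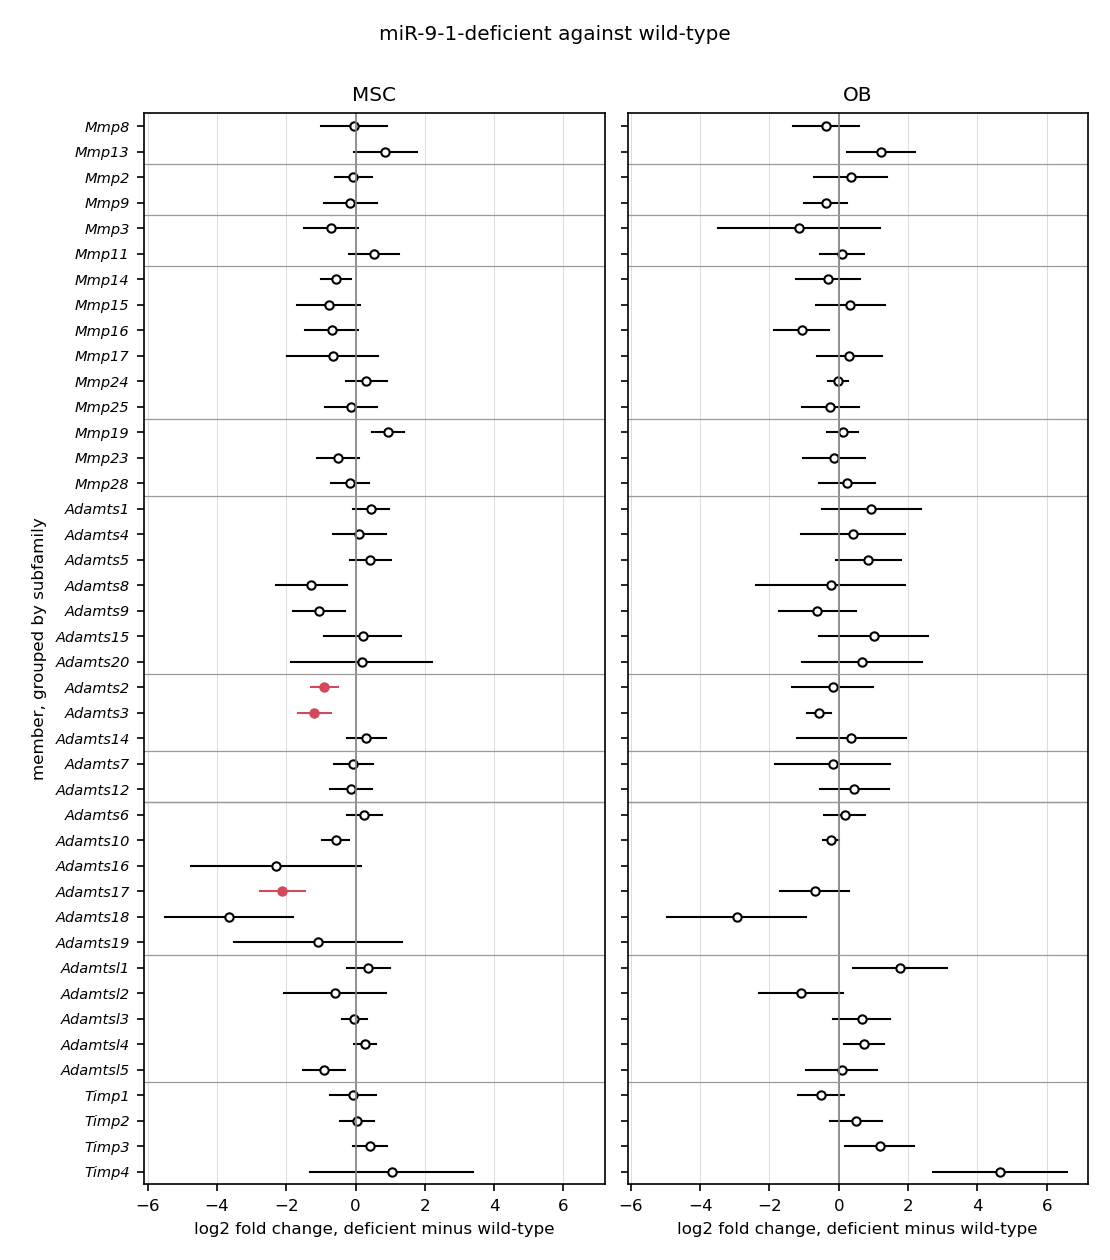
Log2 fold changes of the tested members, deficient minus wild-type, in MSC (left) and OB libraries (right), with 95% intervals from limma, filled red where the adjusted p was under 0.05. Adamts2, Adamts3 and Adamts17 are the filled points, all in MSC and all below 0, and no member is filled in OB.

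The other subfamilies held no call in MSC libraries. Of the collagenases, Mmp13 had 27212, 26636, 15796 and 9676 in wild-type and 36353, 20823, 70038 and 22906 in deficient MSC libraries. The deficient library of mouse G was far above the rest, the groups overlapped, and the fold change was 0.86 ± 0.42, adjusted p = 0.248 (95% interval -0.06 to 1.78). Of the gelatinases, Mmp2 had 46438, 39190.5, 41076 and 39274 in wild-type and 60833, 32439, 41053 and 30779 in deficient libraries, an interval of -0.60 to 0.48 around -0.06. The membrane protease Mmp14 stood at 23279, 22075, 15901 and 18229 in wild-type and 17504, 13549.8, 12791 and 10538 in deficient libraries. Only mouse E of the deficient group reached into the wild-type range (-0.56 ± 0.20, adjusted p = 0.139). Mmp16, another membrane-type protease, had 195 to 505 and 142 to 322 (-0.69 ± 0.35, adjusted p = 0.269).

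Mmp19, a protease that cuts components of basement membranes, was the member that was higher in every deficient MSC library. Its values were 436, 331, 325 and 302 in wild-type and 909, 483, 685 and 639 in deficient libraries, and the fold change of 0.94 ± 0.21 missed the threshold (adjusted p = 0.0555). It passed in 4 of 17 alternatives: with quantile normalization (0.97, adjusted p = 0.046), with DESeq2, in a fit of all 16 libraries and without mouse F. It did not pass with edgeR (adjusted p = 0.0548), without a filter (0.061), without any other single library, or without mice G and H (0.284). The gene overlaps Tmem198b on the other strand, and the strand used for counting is not given in the sources used here. Stromelysins showed no call: Mmp3 had 748 to 1424 and 424 to 1393 (-0.71 ± 0.35, adjusted p = 0.258), and Mmp11, which is activated inside the cell by furin, 190.3 to 352 and 188 to 482 (0.53 ± 0.32, adjusted p = 0.351). Mmp23, which can trap potassium channels inside cells, had 509 to 962 and 332 to 799 (-0.50 ± 0.28, adjusted p = 0.308).

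The proteoglycanases, which cut aggrecan and versican, held 7 tested members and 0 calls in MSC libraries, with a median fold change of 0.17. Adamts1, the most abundant of them, had 12174, 8810.1, 13125 and 9767 in wild-type and 21137, 10057, 12537 and 17793 in deficient libraries, which overlapped (0.45 ± 0.24, adjusted p = 0.29). The aggrecanases Adamts4 and Adamts5 had fold changes of 0.11 ± 0.35, adjusted p = 0.87 and 0.43 ± 0.27, adjusted p = 0.371. Adamts9, which cuts versican, had 724, 728, 915 and 768 in wild-type and 234, 803, 239 and 437 in deficient libraries. Mouse F alone of the deficient mice lay in the wild-type range (-1.06 ± 0.34, adjusted p = 0.115), and the fold change passed without that library. Adamts15 spread from 180.4 to 1426 within the deficient group (0.21 ± 0.50, adjusted p = 0.834), and Adamts12, which cuts cartilage oligomeric matrix protein, was at -0.14 ± 0.28, adjusted p = 0.8.

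ADAMTS-like genes and inhibitors likewise held no call in MSC libraries. Adamtsl5, whose protein binds microfibrils, had 645, 497, 560.3 and 439 in wild-type and 236, 487, 301 and 179.7 in deficient libraries (-0.91 ± 0.28, adjusted p = 0.105), with mouse F again in the wild-type range. Adamtsl1, Adamtsl3 and Adamtsl4, which is needed for the fibers that hold the lens, had fold changes of 0.37 ± 0.28, -0.04 ± 0.17 and 0.26 ± 0.15, with adjusted p of 0.448, 0.909 and 0.307. Timp2 had 45672, 34540.1, 36191 and 34169 in wild-type and 48330.5, 36757, 43699 and 28270.0 in deficient libraries, with a 95% interval of -0.45 to 0.54 around 0.04. Timp1, a soluble inhibitor, was at -0.08 ± 0.30, adjusted p = 0.9, and Timp3, which stays bound to matrix and blocks aggrecanases, at 0.41 ± 0.22, adjusted p = 0.288. Timp4 had 126, 11.7, 149 and 245 in wild-type and 155, 23.2, 376 and 755 in deficient libraries, a wide spread in both (1.05 ± 1.07, adjusted p = 0.589), and it was at -0.51, adjusted p = 0.853 without mice G and H.

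Genotype in OB libraries was compared in the same way, and of 40 tested members 0 passed with limma, against 0.0281% of 14229 genes. At an unadjusted p under 0.05 there were 8 members, where 1274 of the 14229 genes, or 8.95%, were. On the recovered reads edgeR called 0 members, and DESeq2 called 1, Timp4, among 194 genes. The median fold change was 0.11. Without overlap between the groups, 1 member was lower and 1 higher, where 2.99% and 2.47% of all genes were. The member without overlap that was higher is the inhibitor Timp4, known from heart and fat. Its values were 16.5, 0, 2.26 and 1.47 normalized counts in wild-type OB and 243, 35.8, 79.7 and 75.9 in deficient OB libraries. The log2 fold change was 4.65 ± 0.86 (limma adjusted p = 0.125, DESeq2 adjusted p = 0.025). Of the wild-type libraries only that of mouse A had more than 3 reads, so the fold change depends on the count added before the log, and it was 3.44, adjusted p = 0.112 with a pseudocount of 5. Timp4 overlaps Syn2 on the other strand, and Syn2 had 0 to 4.52 in wild-type OB and 2.61 to 23.5 in deficient OB libraries.

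Adamts3 was the member that was lower without overlap in OB libraries. It had 359, 267, 264 and 392 in wild-type OB and 211, 239.7, 208 and 190.2 in deficient OB libraries (-0.58 ± 0.15, adjusted p = 0.29). Adamts2 had 1013, 1067, 660.0 and 700.4 against 1617, 1426, 517 and 257: mice E and F lay above and mice G and H below all wild-type libraries (-0.18 ± 0.52, adjusted p = 0.941). Its direction turned with the method, to 0.19, adjusted p = 0.933 with edgeR. Adamts17 had 73.8, 92.3, 97.9 and 123 in wild-type and 85.2, 129, 27.8 and 37.6 in deficient libraries, where mouse F was highest and mice G and H were under every wild-type library (-0.70 ± 0.44, adjusted p = 0.659). Without mice E and F, left out after seeing the data, the fold changes were -1.20, adjusted p = 0.112 for Adamts2, -1.53, adjusted p = 0.0553 for Adamts17 and -0.67, adjusted p = 0.183 for Adamts3. The MSC stroma genes were high in the same libraries, with mean log2 levels of 10.18 and 10.75 in the OB libraries of mice E and F, 9.13 and 8.002 in those of G and H, and 8.32 to 9.19 in wild-type OB (0 of 10 passed between genotypes, none at 0). The osteoblast genes had 9.71 to 10.69 in wild-type and 6.43 to 8.97 in deficient OB libraries (1 of 10 fell, none at 0). The 9 chondrocyte genes had 12.91 to 14.41 in wild-type and 10.63 to 12.30 in deficient OB libraries: 0 of 9 passed, 9 of 9 had negative fold changes, 6 of them without overlap, and none was at 0. Over all genes, 2.99% were lower without overlap. The part of these lists in the members' values was not tested.

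Other members in OB libraries overlapped between the genotypes. Mmp13 had 1925, 1536, 881 and 921 in wild-type and 4085, 5108, 3056 and 1136 in deficient libraries. The 3 highest values were deficient, with mouse H within the wild-type range (1.23 ± 0.44, adjusted p = 0.435). Mmp13 passed in 1 of 17 alternatives, when mouse H was left out (1.68, adjusted p = 0.0357). Without mice E and F its fold change was 0.58, adjusted p = 0.678. Timp3 too had its 3 highest values in deficient libraries and mouse H within the wild-type range, with 2579, 1573, 2433 and 1952 and 11445, 5622, 4170.5 and 1877 (1.18 ± 0.45, adjusted p = 0.466). It overlaps Syn3 on the other strand, which had 125 to 194 in wild-type and 106 to 204 in deficient OB libraries. Mmp16 had 97.4, 160.0, 55.0 and 93.2 and 33.8, 72.3, 42.4 and 37.6, with 3 of the 4 deficient libraries under every wild-type one (-1.07 ± 0.35, adjusted p = 0.389). Adamtsl1 was at 1.76 ± 0.60, adjusted p = 0.421 and Adamtsl4 at 0.74 ± 0.26, adjusted p = 0.428.

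The OB library of mouse E stood above the other deficient OB libraries in many members. Its proteoglycanases were Adamts1 at 8372, Adamts4 at 1959 and Adamts15 at 333 normalized counts, against highest values of 3302, 434 and 48.8 in the other deficient OB libraries. Mmp2 was 4484, 4749, 3352 and 3765 in wild-type and 14096, 6498, 3547 and 2162 in deficient OB libraries, so that mouse E was high and mouse H low (0.35 ± 0.47, adjusted p = 0.85). Timp2 followed the same order among the deficient libraries, with 3725, 3469, 3037 and 3016 and 8866, 5847, 3982 and 2316 (0.50 ± 0.33, adjusted p = 0.668). The members' share of all counts was 0.496% and 0.303% in mice E and F, 0.181% and 0.106% in mice G and H, and 0.136 to 0.183% in wild-type OB libraries. Mice E and F were thus above and mouse H below every wild-type OB library for this share.

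**Figure D3:**
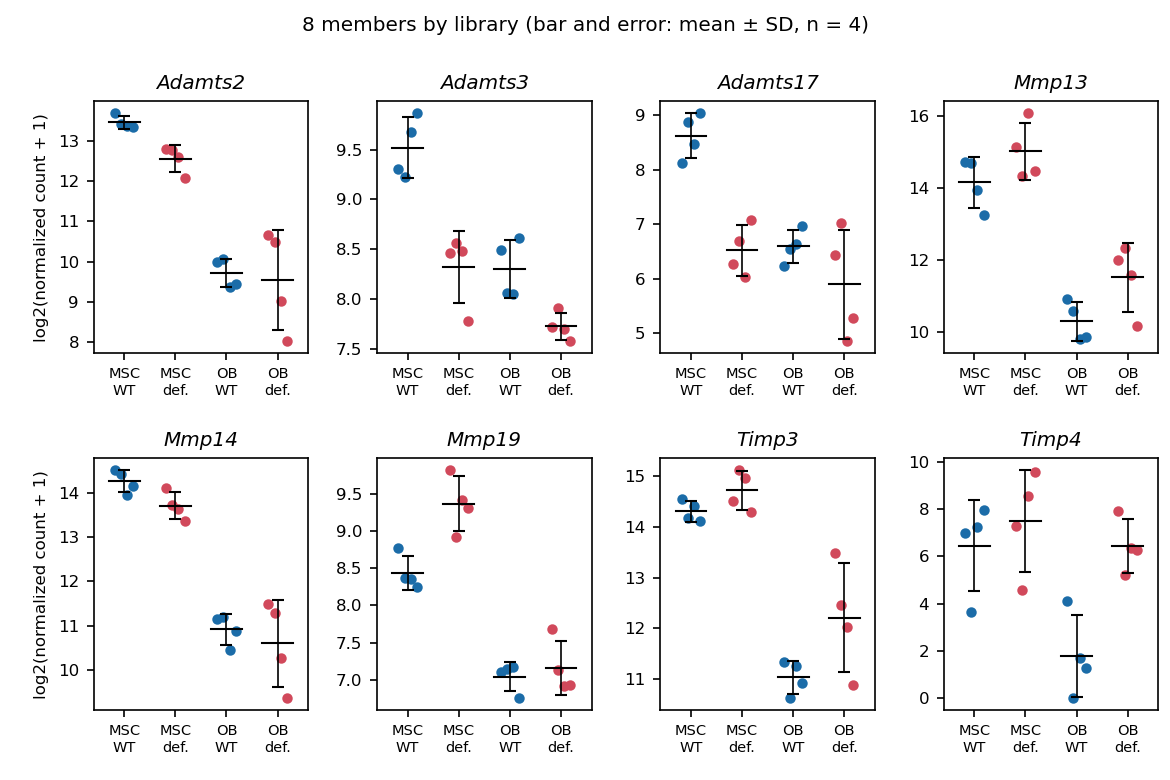
Values of 8 members in every library as log2(normalized count + 1), for wild-type (blue) and deficient (red) MSC and OB libraries, with the mean and SD of 4 libraries in black. Adamts2, Adamts3 and Adamts17 are lower in all 4 deficient MSC libraries, Mmp19 is higher in all 4, and Timp4 is higher in all 4 deficient OB libraries.

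The genotype effects in OB and MSC libraries were compared as a difference of differences over all 16 libraries. Of 42 tested members 0 passed with limma, against 0.0129% of 15556 genes, and 0 passed with edgeR or DESeq2. At an unadjusted p under 0.05 there were 4, where 1786 of the 15556 genes, or 11.5%, were, so the members' share was not above that of all genes. The 4 were Mmp19 (OB effect minus MSC effect -0.82 ± 0.30, adjusted p = 0.349), Adamts17 (1.41 ± 0.57, adjusted p = 0.376), Timp4 (3.60 ± 1.55, adjusted p = 0.391) and Adamts3 (0.62 ± 0.28, adjusted p = 0.407). So the falls of Adamts2, Adamts3 and Adamts17 in MSC libraries were not shown to differ from their OB values. For Adamts2 the difference was 0.73 ± 0.59 (95% interval -0.52 to 1.97). That of Timp4 depends on the count added before the log, and it ran from 2.45 to 5.16 over the alternatives.

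Ratios within a library, given as descriptions, showed where the make-up of the proteases differed between genotypes. Mmp14 took 11.5 to 15.5% of the summed Mmp level per kilobase in wild-type MSC and 5.08 to 10.3% in deficient MSC libraries. In OB libraries its share was 12.4 to 15.6% and 7.39 to 8.9%, so the genotypes were apart in both cell types. Mmp13 took 18.3 to 35.2% and 35.2 to 62.0% in MSC, and 17.0 to 26.0% and 23.4 to 42.6% in OB libraries, with overlap between the genotypes in both cell types. The ratio of Adamts1 to Adamts2 was 0.802 to 1.23 in wild-type and 1.44 to 4.09 in deficient MSC libraries, and 1.15 to 1.85 and 2.2 to 5.18 in OB libraries. A changed ratio shows unequal levels of the members, not which of them moved. The summed Timp level was 0.573 ± 0.0909 (SD, n = 4) of the summed Mmp level in wild-type MSC, 0.537 ± 0.149 in deficient MSC, 0.698 ± 0.108 in wild-type OB and 0.665 ± 0.094 in deficient OB libraries. These ratios overlapped between the genotypes in both cell types. Timp3 took 12.4 to 21.8% of the summed Timp level in wild-type OB and 21.8 to 33.5% in deficient OB libraries, which met at 21.8 without overlap.

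Many more members differed between the cell types than between the genotypes. Of 41 members that passed the filter in wild-type mice, 39 were lower and 0 higher in OB than in MSC libraries, where 35.5% of 14696 genes were lower and 34.4% higher. The median log2 fold change of the tested members was -3.15, with a range from -5.79 to -0.04, and over all genes the median was 0.01. For 37 members every OB library was under every MSC library, as for 32.9% of all genes. The filter leaves out the members lowest in both. Adamts7, Adamts8, Mmp15 and Timp4 passed it through their 4 MSC libraries, since not all of their OB libraries reached 10 normalized counts. In deficient mice this held for Adamts7, Adamts8, Mmp3 and Mmp15, and all of these falls are counted in this paragraph. In wild-type mice Adamts16 passed with no OB library at that level. Its wild-type OB libraries all held at most 3 reads, so its fold change of -5.79 depends on the added count, and set against the highest limit of a library it was at least 36.7-fold lower, which leaves the median at -3.15. In deficient mice 34 of 39 tested members were lower in OB and 0 higher, where 30.6% of 14692 genes were lower and 29% higher, with a median of -2.59, and 30 had no overlap, as had 27.1% of all genes in that direction.

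Marker lists of other cell types differed between the wild-type MSC and OB libraries too, in both directions. In OB libraries 9 of 10 MSC stroma genes, 8 of 8 fibroblast or tendon genes and 7 of 7 mural genes were lower. Their mean log2 levels were 11.14 to 12.03, 11.91 to 12.50 and 10.10 to 12.02 in MSC, and 8.32 to 9.19, 9.06 to 9.61 and 6.996 to 7.91 in OB libraries. Blood progenitor genes (8 of 8) and erythroid genes (7 of 7) were higher, from 8.42 to 8.83 and 7.65 to 8.51 in MSC to 10.89 to 11.09 and 9.82 to 10.21 in OB libraries. Of the chondrocyte genes 7 of 9 were higher and 1 lower, with levels of 11.45 to 13.97 in MSC and 12.91 to 14.41 in OB libraries. Of the endothelial genes 4 of 7 were higher and 1 lower, with levels of 6.39 to 8.11 and 7.803 to 8.24. The 4 tested osteoclast genes were lower (5.40 to 5.83 and 3.86 to 4.27, with Dcstamp at 0 in wild-type MSC), and of 7 tested B lineage genes 5 were lower and 1 higher (6.04 to 7.001 and 4.31 to 5.34). No other gene of these lists was at 0 in a whole group, and the part of these cells in the members' difference was not tested.

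**Figure D4:**
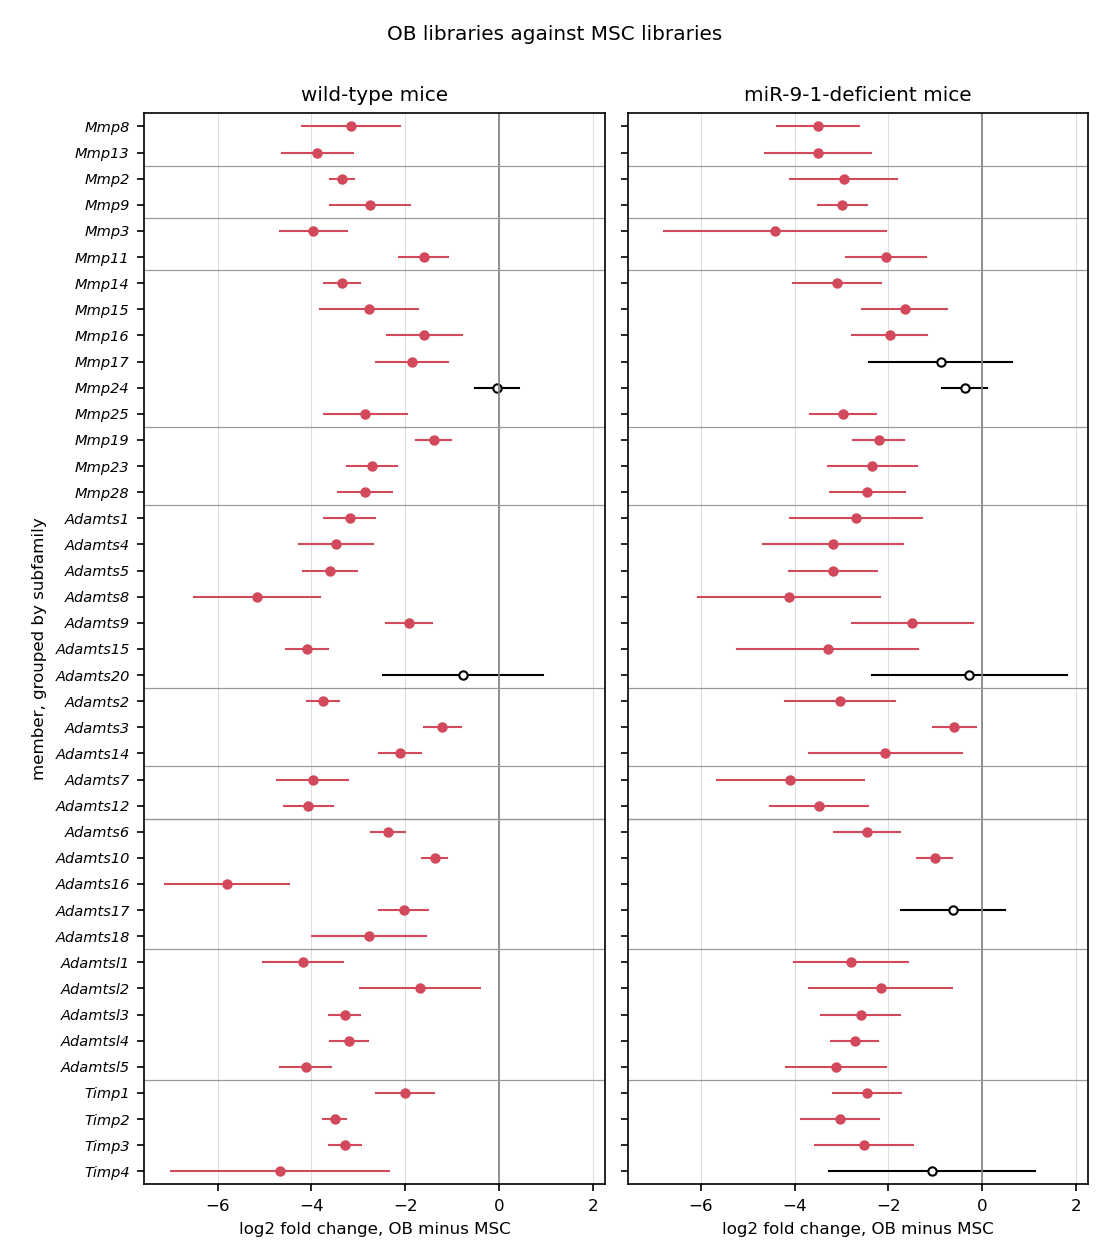
Log2 fold changes of the tested members, OB minus MSC, in wild-type (left) and deficient mice (right), with 95% intervals from limma, filled red where the adjusted p was under 0.05. All points lie below 0 (Mmp24 in wild-type mice turns above 0 with quantile normalization), 39 of 41 are filled in wild-type mice and 34 of 39 in deficient mice.

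Among the metalloproteinases, both tested collagenases were lower in wild-type OB libraries. Mmp13 went from 27212, 26636, 15796 and 9676 in MSC to 1925, 1536, 881 and 921 in OB libraries (-3.87 ± 0.34, adjusted p = 2.32e-06), while Mmp8, a collagenase of neutrophils, had 380.2 to 1614 in MSC and 61.7 to 214 in OB libraries (-3.15 ± 0.47, adjusted p = 0.000132). Gelatinases were lower by a median of -3.06, with Mmp2 at 46438, 39190.5, 41076 and 39274 in MSC and 4484, 4749, 3352 and 3765 in OB libraries (-3.35 ± 0.11, adjusted p = 4.5e-09). The highest OB library held 4749 and the lowest MSC library 39190.5. Stromelysins Mmp3 and Mmp11 were at -3.96 ± 0.32, adjusted p = 1.15e-06 and -1.61 ± 0.24, adjusted p = 0.00011. Of the 6 membrane-anchored members 5 were lower, among them Mmp14 (-3.34 ± 0.17, adjusted p = 4.18e-08), Mmp16 (-1.59 ± 0.36, adjusted p = 0.00235) and Mmp25 (-2.85 ± 0.40, adjusted p = 7.47e-05). The exception was Mmp24, a membrane-type protease of the nervous system, which had 107 to 181 in wild-type MSC and 126 to 164 in wild-type OB libraries (-0.04 ± 0.21, adjusted p = 0.867, 95% interval -0.51 to 0.42, but 0.20 with quantile normalization) and is named after its values were seen. Mmp19 (-1.39 ± 0.17, adjusted p = 2.74e-05) and Mmp23 (-2.70 ± 0.24, adjusted p = 2.21e-06) were lower too.

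ADAMTS proteases that cut proteoglycans were lower in OB libraries in 6 of 7 tested members, with a median of -3.48. Adamts1 had 1869.8, 1468, 761 and 967 in wild-type OB libraries, against 8810 to 13125 in MSC (-3.18 ± 0.25, adjusted p = 8.54e-07). Adamts4 and Adamts5 were at -3.48 ± 0.36, adjusted p = 7.26e-06 and -3.61 ± 0.26, adjusted p = 5.2e-07, Adamts9 at -1.92 ± 0.22, adjusted p = 1.84e-05 and Adamts15 at -4.09 ± 0.20, adjusted p = 3.66e-08. Only Adamts20, which never exceeded 52.3, did not pass. All 3 procollagen N-proteinases were lower, with Adamts2 at -3.75 ± 0.16, adjusted p = 1.28e-08, Adamts14 at -2.11 ± 0.20, adjusted p = 3.85e-06 and Adamts3 at -1.21 ± 0.18, adjusted p = 0.000127, the smallest difference of the subfamily. Adamts12 and Adamts7, which cut cartilage oligomeric matrix protein, were lower by a median of -4.02, with Adamts12 at 1010.2, 596, 547 and 805 in MSC and 34.6, 35.1, 52.7 and 48.5 in OB libraries (-4.06 ± 0.24, adjusted p = 1.04e-07). Of the fibrillin-related and other genes all 5 tested were lower, including Adamts6 (-2.37 ± 0.16, adjusted p = 3.26e-07) and Adamts17 (-2.03 ± 0.23, adjusted p = 1.76e-05). Adamts17 did not pass in deficient mice (-0.62 ± 0.49, adjusted p = 0.295), with 76.3, 102, 64.1 and 134 in MSC and 85.2, 129, 27.8 and 37.6 in OB libraries.

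The remaining members fall outside the rule for named genes and are given by range. Among those tested in wild-type mice, Adamts7 had 261 to 349.7 in MSC and 9.04 to 29.9 in OB libraries, the proteoglycanase Adamts8 164 to 689.7 and 3.77 to 29.1, and Adamts10 2220.2 to 3339 and 953 to 1117. Adamts18 had 179 to 1004 and 21.8 to 70.5, and Adamts16 63.4 to 132 and 0 to 2.2. Adamtsl2, an ADAMTS-like protein of the microfibril, had 60.8 to 215 and 10.4 to 73.4, and Mmp28 265 to 365 and 26.4 to 60.5. The membrane-type Mmp15 and the GPI-anchored Mmp17 had 41.6 to 105 and 60.8 to 149 in MSC, and 4.52 to 13.7 and 24.96 to 42.4 in OB libraries. All of these were lower in OB libraries at an adjusted p under 0.05, and only Adamtsl2 overlapped between the cell types among them.

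All 5 ADAMTS-like genes were lower in OB libraries of wild-type mice, with a median of -3.29. Adamtsl3 had 1299.8 to 1783 in MSC and 121 to 174 in OB libraries (-3.29 ± 0.15, adjusted p = 1.88e-08), Adamtsl4 953 to 1403 and 86.6 to 146 (-3.20 ± 0.18, adjusted p = 7.95e-08), and Adamtsl5 439 to 645 and 19.8 to 40.1 (-4.12 ± 0.25, adjusted p = 1.35e-07). Adamtsl1 was at -4.18 ± 0.38, adjusted p = 2.92e-06, but it overlaps Sh3gl2 on the same strand. All 4 inhibitors were lower as well. Timp2 had 45672, 34540.1, 36191 and 34169 in MSC and 3725, 3469, 3037 and 3016 in OB libraries (-3.50 ± 0.11, adjusted p = 4.5e-09), and Timp3 24137, 18402, 21733 and 17757 and 2579, 1573, 2433 and 1952 (-3.28 ± 0.16, adjusted p = 2.64e-08). Timp1 had the smallest difference of the 4 (-2.01 ± 0.28, adjusted p = 7.61e-05), from 1736, 2070.2, 1153 and 2427 in MSC to 621, 426, 261 and 549 in OB libraries. Timp4 overlapped between the cell types (-4.67 ± 1.05, adjusted p = 0.00225), since the MSC library of mouse B held 11.7 and the OB library of mouse A 16.5, and in deficient mice it did not pass (-1.07 ± 0.98, adjusted p = 0.366). In wild-type OB its reads were 21, 0, 3 and 2, so its wild-type fold change depends on the added count. It ran from -5.60 to -3.51 over the alternatives. The members that did not pass in deficient mice were Timp4, Adamts17, Adamts20, Mmp17 and Mmp24, of which the last 3 lie outside the rule for named genes and are given after their values were seen.

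Mmp8, Mmp9 and Mmp25 are products of neutrophils, where Mmp8 and Mmp9 are stored in granules, and their levels were set beside those of 9 neutrophil marker genes in each library. Mmp9 had 1417, 2758, 2353 and 833 in wild-type and 1095, 1584, 1248 and 2363 in deficient MSC libraries, and Mmp8 901, 1614, 1513 and 380.2 and 655, 1165, 649.7 and 1540.1. Mice B and C were high and mouse D low for both among wild-type MSC libraries, and mouse H was highest among deficient ones. The mean log2 level of the neutrophil genes was 10.25 to 12.72 in wild-type MSC, 10.68 to 11.79 in deficient MSC, 8.48 to 10.81 in wild-type OB and 8.58 to 9.24 in deficient OB libraries, with none at 0. Across the 8 MSC libraries, Mmp9 followed it with r = 0.94 (permutation p = 0.000893, Benjamini-Hochberg adjusted 0.00432), Spearman rho = 0.93 (p = 0.00223, adjusted 0.0067). For Mmp8 the values were r = 0.91 (permutation p = 0.00144, Benjamini-Hochberg adjusted 0.00432), Spearman rho = 0.95 (p = 0.00114, adjusted 0.0067), and for Mmp25, a membrane-anchored protease of leukocytes, r = 0.85 (permutation p = 0.00888, Benjamini-Hochberg adjusted 0.0106), Spearman rho = 0.86 (p = 0.0107, adjusted 0.0161). Without the 2 libraries farthest from the median of the markers, r was 0.86 for Mmp9, 0.86 for Mmp8 and 0.84 for Mmp25.

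Across the 8 OB libraries, Mmp9 followed the neutrophil genes with r = 0.97 (permutation p = 0.00407, Benjamini-Hochberg adjusted 0.00813), Spearman rho = 0.90 (p = 0.00456, adjusted 0.00913). Mouse B held the highest value of both in OB, with Mmp9 at 464 normalized counts, and r without the 2 farthest libraries was 0.93. For Mmp8 the values were r = 0.85 (permutation p = 0.00749, Benjamini-Hochberg adjusted 0.0106), Spearman rho = 0.71 (p = 0.0576, adjusted 0.0691), with r = 0.73 without those libraries. For Mmp25, r was 0.68 (permutation p = 0.213) and rho -0.05 (p = 0.935), and r was -0.21 without them, so no relation held. All permutation tests were exact and two-sided. These were 6 relations, each over 8 libraries of both genotypes, and 4 libraries of a genotype are too few to give a correlation within it. None of the 3 genes differed between genotypes past the threshold in either cell type, with MSC fold changes of -0.03 ± 0.43 for Mmp8, -0.15 ± 0.35 for Mmp9 and -0.12 ± 0.34 for Mmp25. All 3 were lower in wild-type OB than MSC libraries, together with 7 of the 9 neutrophil genes.

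**Figure D5:**
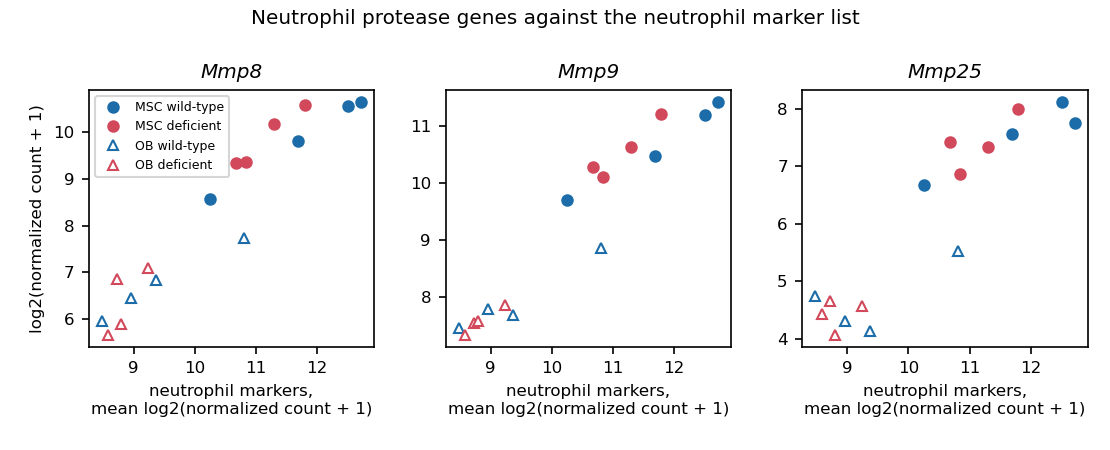
Level of Mmp8, Mmp9 and Mmp25 (log2 of normalized count + 1) against the mean log2 level of 9 neutrophil marker genes in each of 8 MSC (circles) and 8 OB libraries (triangles), wild-type in blue and deficient in red. Among MSC libraries all 3 genes are highest where the markers are high, and among OB libraries mouse B stands apart at the upper right.

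The other genes of the system were read from a list of 67 in the table: proteases of other families, the plasminogen system, proteinases that cut the carboxy-terminal procollagen propeptide, further inhibitors, convertases that activate the enzymes, substrates and uptake receptors. In MSC libraries 3 of the 61 tested fell in deficient mice and 0 rose, where 0.561% of all genes fell and 0.501% rose. Bmp1, the main procollagen C-proteinase, was 6996 ± 354 normalized counts (SD, n = 4) in wild-type and 3781 ± 752 in deficient MSC libraries (-0.91 ± 0.16, adjusted p = 0.0348). Fbn1, the gene of fibrillin-1, was 17432 ± 3538 and 7442 ± 2095 (-1.25 ± 0.22, adjusted p = 0.0321), and Ltbp1, which tethers latent TGF-beta to fibrillin, 5678 ± 775 and 2709 ± 321 (-1.06 ± 0.14, adjusted p = 0.0253). Bmp1 was 1 of 4 tested procollagen C-proteinases, and no other of them passed. Without mice G and H, or without mouse B, no gene of the table passed in MSC libraries, these 3 included. In OB libraries 0 of 60 passed with limma (23 at an unadjusted p under 0.05, where 8.95% of all genes were), with Col2a1 at -2.89 ± 0.40, adjusted p = 0.0765 and Wfikkn2, a protease inhibitor, at 1.96 ± 0.31, adjusted p = 0.0874, and 0 of 64 passed for the difference of effects.

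Between the cell types of wild-type mice, 49 of 62 tested genes of the same list were lower and 5 higher in OB libraries, with a median of -2.34. Among all 14696 genes tested, 35.5% were lower and 34.4% higher. The leading falls were Ltbp1 (-3.72 ± 0.14, adjusted p = 5.96e-09), Fbn1 (-3.74 ± 0.14, adjusted p = 6.42e-09), the secreted protease Htra1 (-3.80 ± 0.15, adjusted p = 8.49e-09) and the C-proteinase enhancer Pcolce (-3.29 ± 0.14, adjusted p = 1.23e-08). The 4 leading of the 5 that rose were the membrane sheddase Adam10 (1.24 ± 0.06, adjusted p = 2.19e-08), the convertase Furin, which activates several members (0.51 ± 0.08, adjusted p = 0.000297), the substrate of Adamts13, Vwf (1.82 ± 0.54, adjusted p = 0.0116), and the hyaluronidase Hyal2 (0.43 ± 0.16, adjusted p = 0.0357). In deficient mice 46 of 61 were lower and 6 higher, where 30.6% of all genes were lower and 29% higher. The median was -2.36, and the leading falls were Htra3 (-4.04 ± 0.30), Plau (-4.02 ± 0.33), Lrp1 (-3.25 ± 0.32) and Ctsb (-1.69 ± 0.19).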

How the data were processed

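Poly(A) RNA of sorted MSC and OB populations was sequenced in 16 libraries, 4 for each cell type and genotype. The authors deposited 1 signal table of normalized counts per gene, that is read counts divided by a size factor for each library, made with DESeq2 1.24.0 on genome build mm10 per the submitters' processing notes. The sources used here do not give the aligner, the counter, its strand setting or the annotation. Nearly all low values were whole multiples of the value of 1 read (100% of values within 0.01), so reads per gene were recovered and used for library totals and for count tests run as alternatives.

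The main tests used limma 3.58.1 (R 4.3.3) with a trended variance on log2(normalized count + 1), for genes with at least 10 normalized counts in at least 4 libraries of a comparison, with Benjamini-Hochberg adjustment over all genes tested and a threshold of 0.05. The comparisons were deficient against wild-type in MSC and in OB, OB against MSC in each genotype, and the difference of the genotype effects. Alternatives were a pseudocount of 5, no filter or a filter of 50, quantile normalization, edgeR 4.0.16, DESeq2 1.42.0, a fold threshold of 1 on the log2 scale, a fit of all 16 libraries, the animal number as a block, and leaving out single libraries. After seeing the data, the MSC libraries of mice G and H, and the OB libraries of mice E and F, were left out together. The fits were tested on simulated data. Animal numbers pair MSC and OB libraries in the labels, and deviations of same-numbered libraries from their group means correlated at 0.0241 to 0.285 across 15556 genes.

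The members and all gene lists were chosen with earlier results of these data known. Values in every library are given for members called without overlap (up to 12 per comparison), the 3 highest of each family, each Timp and members fixed by function; related genes are named up to 4 per comparison and direction. Levels of different genes were compared per kilobase of exon (GENCODE M21), and promoter and miRNA sequences are from RefSeq (GRCm38.p6). Because the labels name animals, the tests among MSC libraries were taken to measure the spread between mice. The OB libraries held RNA of both sexes, so tests that use them measure a spread between libraries that was not shown to be between mice.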

Additional observations from a re-analysis of the deposited data

Results flagged for a closer look

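Of 119 groups of 4 libraries, over the named members with a group mean of at least 10 normalized counts, 9 held a library whose gap to the nearest of the other 3 passed Dixon's critical value at 95%. Chance alone flags about 1 in 20 groups. The OB library of the deficient mouse E was high in 3 members: Adamts4 at 1958.56 normalized counts (the other 3 at 186 to 434), Adamts14 at 578.165 (42.8 to 106) and Adamts15 at 332.794 (21.9 to 48.8). The MSC library of the deficient mouse F was apart in 3 members, high in Mmp3 at 1393.12 (424 to 551) and Mmp16 at 322.184 (142 to 149), and low in Mmp11 at 188.155 (450 to 482). The MSC library of the deficient mouse H was low in Adamts3 at 219.182 (351 to 376). The wild-type OB library of mouse B was low in Adamts6 at 79.3379 (98.2 to 101) and high in Mmp9 at 463.671 (173 to 220). No member moved in opposite directions with genotype in every library of MSC and OB.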

How the results depend on the processing

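For the member fold changes described above, with each left-out library counted, 1955 alternative values were computed: 1840 kept their direction and side of the threshold, 52 no longer passed, 17 newly passed and 46 turned direction, 0 of these for a called fold change. In MSC the turned values were 0.0096 (edgeR), 0.018 (DESeq2) and 0.10 (without mice G and H) for Mmp2, 0.0027 with quantile normalization for Mmp25, and, without mice G and H, -0.00043 for Adamts14, -0.028 for Adamts15, -0.38 for Adamts4 and -0.51 for Timp4. With single MSC libraries left out, fold changes that turned ranged from -0.30 to 0.044 for Adamts12, -0.21 to 0.78 for Adamts15, -0.15 to 0.44 for Adamts4, -0.14 to 0.071 for Adamtsl3, -0.26 to 0.064 for Mmp2, -0.41 to 0.079 for Mmp25, -0.48 to 0.22 for Mmp8, -0.48 to 0.098 for Mmp9, -0.29 to 0.12 for Timp1 and -0.067 to 0.19 for Timp2. In OB the turned values were 0.19 with edgeR and DESeq2 for Adamts2 and, without mice E and F, -0.55 for Mmp2 and -0.12 for Timp2, and the ranges with single libraries left out were -0.55 to 0.33 for Adamts2 and -0.14 to 0.76 for Mmp2. Without mice E and F the difference of effects turned to -0.30 for Adamts2, and without G and H the cell-type difference of Timp4 in deficient mice to 0.49. Between wild-type cell types Mmp24 turned to 0.20 with quantile normalization and ranged from -0.18 to 0.068 with single libraries left out. The 3 members called between genotypes in MSC became 6 with DESeq2 and 5 in a fit of all 16 libraries, and ranged from 0 to 10 when single libraries were left out. They were 0 without mice G and H. Adamts2 was lost under edgeR (adjusted p = 0.0539), without a filter (0.0524) and in the fit of all 16 libraries (0.153). The 0 members called in OB became 1 with DESeq2 and 0 to 1 with single libraries left out. Over all genes, the 159 calls in MSC (75 higher) became 1196 with DESeq2 (688 higher), 2246 in the fit of all 16 libraries, 0 without mice G and H, and 0 to 2261 with single libraries left out, while edgeR gave 147 (87 higher). The 4 calls in OB (3 higher) became 16 with quantile normalization (9 higher), 194 with DESeq2 (114 higher), 24 in the fit of all 16 libraries, 88 without mice E and F, and 3 to 108 with single libraries left out. For the difference of effects, 2 calls became 0 with a pseudocount of 5, 4 without a filter, 1 with a filter of 50, 1 with edgeR, 127 with DESeq2, 0 without mice E and F, and 0 to 571 with single libraries left out. A fold threshold of 1 on the log2 scale left 6009 of 10271 cell-type calls in wild-type and 5480 of 8761 in deficient mice. The cause of these differences was not tested. With the animal number as a block, the members called between cell types stayed at 39 and 34 and the difference at 0, and the genes called were 10216, 8978 and 3, so pairing changed no count by over 1.5 times. Quantile normalization moved the median of all genes between cell types to 0.17 in wild-type and 0.10 in deficient mice. Depth limits members under the level of 3 reads, and DESeq2's calls rest on recovered reads.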

Other observations

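Among OB libraries, Adamts13 was listed in all 4 deficient libraries and in 2 of the 4 wild-type ones. Its reads were few, at 0 to 3 in wild-type and 1 to 11 in deficient OB libraries, and it was left out of the tests by the filter. The filter also left out Mmp1a, Mmp1b, Mmp10, Mmp12, Mmp21 and Mmp27 in every comparison. Mmp1a is annotated as a polymorphic pseudogene in GENCODE M21.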
